A study of Mus musculus with 17 samples.

Results

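The first day of islet culture was examined here by comparing mouse pancreatic islets harvested 24 h after isolation with freshly isolated islets harvested at 0 h. Islets are the clusters of endocrine cells scattered through the pancreas: most are beta cells, which secrete insulin, and the rest are alpha, delta and pancreatic polypeptide cells, threaded with capillaries and resident macrophages. Per the labels and the text on the study's design, 6 batches of islets were isolated from untreated C57BL/6 mice, each batch pooled from 4 animals and divided so that 1 portion was taken at each time, with culture in F12K medium holding fetal bovine serum. Each portion was hybridised to 1 Affymetrix Mouse Genome 430 2.0 array, on which a gene is read by 1 or more sets of short probes (probe sets). The comparison used the 11 arrays of these times out of 17 in all: 5 at 0 h (batches 1, 2, 3, 4 and 6, in which order the 0 h values are listed throughout) and 6 at 24 h. Of batch 5 only the cultured portions were analysed here. All 45037 probe sets other than controls were tested, and 34945 of them carried 1 gene symbol. These stood for 18193 genes, each represented by its probe set with the highest mean level.

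All levels are on the log2 scale, so that a difference of 1 is 2-fold. A gene is said to have risen or fallen where limma's moderated test gave an adjusted p under 0.05 over all probe sets, and ± after a difference is its standard error. No detection call was available, so that levels under 3.52, the median of the whole table, were not separated from background, and folds that involve them are given as at least that large. The arrays at 0 h had medians between 3.52 and 3.57 and those at 24 h between 3.51 and 3.57. The gap between the 3' and 5' actin probe sets, which widens as RNA degrades, was 2.02 to 2.25 at 0 h and 1.91 to 2.28 at 24 h (exact permutation p = 0.632, two-sided). The islet hormones were at the top of the range: Ins2 stood at 13.76 ± 0.03 (SD, n = 5) and 13.73 ± 0.02 (SD, n = 6), Gcg (glucagon) at 12.81 ± 0.27 and 12.77 ± 0.18, and Iapp (islet amyloid polypeptide) at 13.02 ± 0.05 and 13.10 ± 0.09, and none of these passed the test (adjusted p = 0.855, 0.905 and 0.519). The 13.81 of Ins2 on 0 h replicate 3 was the highest value of the whole table, so that a change of these transcripts may lie beyond the range of the array. Markers of other tissues stood high on single arrays. The mean of 12 gut epithelium markers was 6.68 on 0 h replicate 3 and between 3.66 and 3.95 on the remaining 10 arrays, and the mean of 18 markers of acinar cells, the enzyme-producing cells of the surrounding pancreas, was 7.71 on 0 h replicate 4 against 3.70 to 6.55 on the others. The part of these in the results was not tested beyond the fits without each array and with the acinar mean as a covariate.

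Removal of islets from the pancreas cuts their blood supply and nerves, exposes them to collagenase and shear, and places them in a medium whose glucose, amino acids and oxygen differ from those of blood. Beta cells carry a heavy load of protein synthesis through the endoplasmic reticulum (ER), and textbook accounts describe several stress programmes in them: the integrated stress response, in which the translation factor eIF2 is phosphorylated and the transcription factor ATF4 raises genes of amino acid supply, the unfolded protein response, which raises ER chaperones, and the NRF2 response to oxidants. The lists below follow those programmes and the tissue's cell types. Their members were chosen with earlier results of these data known. A list's share beside that of all genes is therefore a description, and no list was tested.

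After 24 h, 2201 of 18193 genes (12.1%) differed from 0 h: 990 (5.44%) were higher and 1211 (6.66%) lower. At least 2-fold changes were seen in 168 genes that rose (0.923%) and 153 that fell (0.841%), and 29 rose and 19 fell by at least 4-fold. The arrays of the times did not overlap in 8.78% of all genes. The largest rises and falls named below were chosen in part for such a gap, so that the gap adds no support for them. Of the risen genes 908 were higher in each of the 5 batches with both times, and of the fallen genes 1086 were lower in each of them. The median difference over all genes was -0.01. The share that passed depended on the level: it was 2.95% of the 6277 genes at or under the table's median, 12.2% of 4824 genes between 3.52 and 6, 18.2% of 4045 genes between 6 and 8, 22.5% of 2304 genes between 8 and 10 and 24.1% of 705 genes between 10 and 12, and 10.5% of the 38 genes above 12. Whole islets were lysed, so that fewer cells of a type and less RNA per cell cannot be told apart in any of these results.

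**Figure D1:**
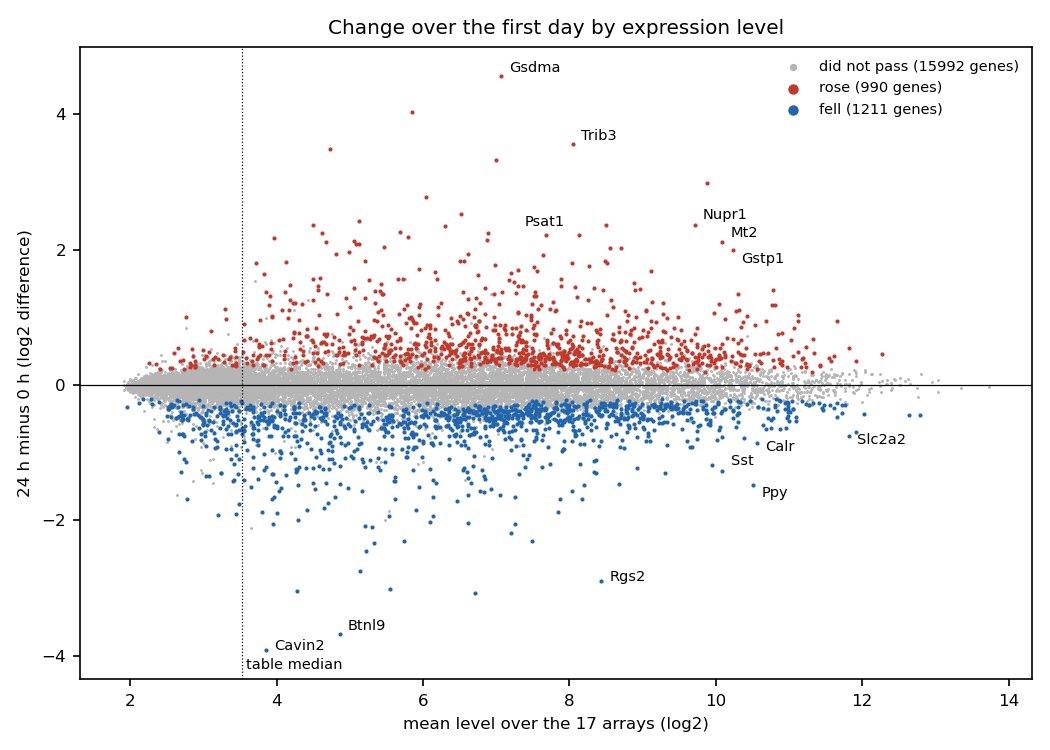
Log2 difference (24 h minus 0 h) of 18193 genes against their mean level over the 17 arrays of the series (log2), with 1 point per gene, red for the 990 that rose, blue for the 1211 that fell and grey for those that did not pass. The dotted line marks the table's median of 3.52. Large changes occur on both sides of 0 at middle levels, while among the most abundant genes most points lie close to 0.

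Among the genes that passed, Gsdma, a gasdermin, had the largest measured rise and read 4.75, 4.51, 3.09, 3.09 and 4.26 at 0 h and 7.96 to 8.85 (median 8.63) at 24 h. Lcn2, lipocalin 2, which binds bacterial iron carriers, read 2.42, 2.71, 3.01, 2.75 and 2.38 at 0 h and 3.66 to 7.75 (median 7.29) at 24 h. Gsdma was the more spread of the 2 at 0 h and Lcn2 at 24 h, where replicate 5 (3.66) stood under the others (6.55 and above), and in both each 24 h array was above every 0 h array. The rise of Gsdma was at least 23.7-fold (4.57 ± 0.28, adjusted p = 5.17e-09) and that of Lcn2 at least 16.4-fold (4.03 ± 0.68, adjusted p = 0.000629). Both are bounds, since 2 of the 0 h arrays of Gsdma and all of Lcn2 lay under the table's median, and the order of the rises is not given by them. Without 24 h replicate 5 the difference of Lcn2 was 4.64. The largest measured fall was in Cavin2, a coat protein of caveolae, which read 6.89, 6.97, 6.65, 5.99 and 6.73 at 0 h and at most 2.99 (median 2.67) at 24 h (at least 15.2-fold, -3.92 ± 0.15, adjusted p = 1.29e-11), with all 24 h arrays under the table's median. The mean of all probe sets of Cavin2 gave -1.45.

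Among the 743 genes with a mean level of at least 10, 87 rose and 87 fell, and 11 of the rises (1.48%) but only 2 of the falls (0.269%) reached 2-fold. The abundant rises were led by the metallothioneins Mt2 (2.12) and Mt1 (1.41), small proteins that bind zinc and copper, and by Gstp1 (1.99), a glutathione transferase. Among those that followed were Mthfd2 (1.34), a mitochondrial folate enzyme, Krt7 (1.19), an epithelial keratin, and Sqstm1 (1.18), the autophagy receptor p62. So were Odc1 (1.11), the rate-limiting enzyme of polyamine synthesis, and Eprs (1.09), a tRNA synthetase. Ghitm (1.03), an inner mitochondrial membrane protein, and B2m (1.02), the light chain of MHC class I, were also among them. Both abundant 2-fold falls were hormones of minor islet cells, Ppy (pancreatic polypeptide, -1.47) and Sst (somatostatin, -1.27). The call of Ppy was lost when 0 h replicate 3 and 24 h replicate 5 were both left out (adjusted p = 0.0544). Among the next were Calr (-0.85), a calcium-binding ER chaperone, and Oxr1 (-0.77), an oxidation resistance gene. Slc2a2 (-0.75), through which rodent beta cells take up glucose, Ccnd2 (-0.69), cyclin D2, and Adk (-0.67), adenosine kinase, also fell. Slc30a8 (-0.65), which loads zinc into insulin granules, and St6gal1 (-0.64), a sialyltransferase, fell as well.

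Most genes of the ATF4 branch of the stress response rose. Of 21 measured members, 16 rose, 0 fell and 5 did not pass (median log2 difference 0.88), or 76.2% higher against 5.44% of all genes. The counts of the other lists are likewise to be set against 5.44% higher and 6.66% lower among all genes. Most list members were above the table's median, where 7.96% of genes were higher and 8.96% lower. At levels between 8 and 10 these shares were 11.5% and 10.9%, so that list shares of about this size do not stand out. Trib3, a pseudokinase induced by ATF4, read 5.68, 5.99, 4.78, 5.46 and 6.42 on the 0 h arrays and 8.81 to 9.63 (median 9.27) at 24 h, with no array of either time inside the range of the other. Nupr1, a small stress-induced nuclear protein, read 8.39, 8.09, 8.09, 8.58 and 8.13 at 0 h and 9.80 to 11.01 (median 10.76) at 24 h, a 5.14-fold rise (log2 difference 2.36 ± 0.21, adjusted p = 5.46e-07). Its 0 h arrays were grouped more tightly than those of Trib3, and every 24 h array stood above all of them. Chac1, an enzyme that degrades glutathione, read 6.79, 7.29, 7.03, 7.12 and 8.21 at 0 h and 9.01 to 9.82 (median 9.27) at 24 h (4.08-fold, 2.03 ± 0.19, adjusted p = 7.49e-07). Also higher were the transcription factor Cebpb (1.57), Ddit4 (1.45), an inhibitor of the growth kinase mTORC1, and Sesn2 (1.21), a leucine sensor that restrains the same kinase. Without 0 h replicate 4, 15 members rose, and with batch as a block 16 did.

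Most enzymes that charge tRNAs with amino acids rose as well. Of 18 cytosolic aminoacyl-tRNA synthetases measured, 12 rose, 0 fell and 6 did not pass (median log2 difference 0.58), which is 66.7% against 5.44% of all genes. Eprs, which charges glutamate and proline, read 9.83, 9.97, 8.99, 9.35 and 9.53 at 0 h and 10.41 to 10.86 (median 10.68) at 24 h (2.13-fold, 1.09 ± 0.15, adjusted p = 7.43e-05). Tars, for threonine, read 8.57, 8.58, 8.94, 8.37 and 8.98 at 0 h and 9.27 to 10.12 (median 9.61) at 24 h (1.99-fold, 0.99 ± 0.18, adjusted p = 0.00105). Aars, for alanine, read 10.10, 9.86, 9.93, 10.01 and 10.23 at 0 h and 10.69 to 11.15 (median 10.99) at 24 h (1.93-fold, 0.95 ± 0.08, adjusted p = 5.46e-07). The 0 h arrays of Eprs were the most spread of the 3 genes, and in each gene every 24 h array was above them. Mars1, for methionine, rose by 0.79, and Cars, for cysteine, by 0.83 with overlapping arrays.

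Several enzymes that supply serine and one-carbon units rose too. Of 21 enzymes of amino acid synthesis and one-carbon metabolism, 10 rose, 1 fell and 10 did not pass (median log2 difference 0.28), so that 47.6% were higher. Psat1, the second step of serine synthesis from glycolysis, read 6.37, 6.87, 6.23, 6.73 and 7.0 at 0 h and 8.47 to 9.13 (median 8.89) at 24 h (4.66-fold, 2.22 ± 0.15, adjusted p = 1.75e-08). Psph, its last step, read 6.06, 6.05, 6.03, 6.14 and 6.17 at 0 h and 7.56 to 8.0 (median 7.82) at 24 h (3.25-fold, 1.70 ± 0.09, adjusted p = 8.7e-10). Psph varied little at 0 h and Psat1 more, and in both the lowest 24 h array lay well above the highest 0 h array. The mitochondrial folate enzymes Shmt2, which splits serine, and Mthfd2 rose by 1.46 and 1.34, with Shmt2 overlapping between times on its arrays, and Gpt2, which makes alanine, rose by 1.83. Cbs, which condenses homocysteine with serine, was the only member that fell (-0.57), and it no longer passed without 0 h replicate 1 (adjusted p = 0.0612) or without 0 h replicate 2. Amino acid transporters took a smaller part: of 28, 7 rose, 0 fell and 21 did not pass (median log2 difference 0.06). Slc7a3, a carrier of cationic amino acids, rose at least 3.83-fold from near background, Slc7a5, of large neutral amino acids, by 0.88, Slc1a4, of small neutral ones, by 0.63, and Slc7a1, the main cationic carrier, by 0.61.

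The promoters of these genes are shown because several members hold the C/EBP-ATF composite motif through which ATF4 is known to act. A promoter window from RefSeq (build GRCm38.p6), 250 bases before to 50 after the start, was matched by symbol for 14452 of the 18193 genes. The letters TGATGNAAN were searched on both strands. They occurred in 396 windows (2.74%), in 8 of 20 windows of the ATF4 list and in 5 of 12 windows of tRNA synthetases. Of the windows of genes that rose at least 2-fold 5.3% held them, and of those that fell at least 2-fold 3.51%. Among risen members with a window, 6 of 15 of the ATF4 list and 4 of 7 synthetases held them, so that the ATF4 share was the same as in its whole list (40%). Printed 5′ to 3′ are the 250 bases before the start of Chac1, chr2:119350992-119351241 (plus strand), of Nupr1, chr7:126625471-126625720 (minus strand), and of Tars, chr15:11399659-11399908 (minus strand), with the match in capitals. In each it lies on the opposite strand: it begins 194 bases before the start in Chac1, 111 in Nupr1 and 16 in Tars. None of these 3 matches overlapped a match to another motif searched.
Chac1: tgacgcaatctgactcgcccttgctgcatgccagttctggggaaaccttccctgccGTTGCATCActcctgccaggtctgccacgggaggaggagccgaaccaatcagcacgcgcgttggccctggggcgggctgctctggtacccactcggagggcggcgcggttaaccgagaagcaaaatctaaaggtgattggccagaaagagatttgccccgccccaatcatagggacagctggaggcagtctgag
Nupr1: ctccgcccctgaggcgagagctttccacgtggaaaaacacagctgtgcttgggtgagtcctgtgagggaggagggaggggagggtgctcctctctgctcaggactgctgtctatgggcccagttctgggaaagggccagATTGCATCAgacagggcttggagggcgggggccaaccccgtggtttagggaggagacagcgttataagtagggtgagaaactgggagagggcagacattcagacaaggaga
Tars: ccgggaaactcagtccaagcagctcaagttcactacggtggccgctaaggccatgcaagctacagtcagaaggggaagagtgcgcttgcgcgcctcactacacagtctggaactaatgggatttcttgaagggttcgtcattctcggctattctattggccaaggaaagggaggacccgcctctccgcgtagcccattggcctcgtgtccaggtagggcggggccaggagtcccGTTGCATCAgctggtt

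A match is a run of letters and was not tested as a binding site. Trib3 holds its match after the start, outside the bases that are shown, and Psat1, Psph, Mthfd2 and Eprs have none in the window.

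Ribosomal proteins were nearly level, while several genes that build ribosomes and regulate translation rose. Of 43 cytosolic ribosomal proteins measured, 1 rose, 0 fell and 42 did not pass (median log2 difference 0.01). In ribosome biogenesis, of 46, 13 rose, 0 fell and 33 did not pass (median log2 difference 0.21), led by Nhp2, a core protein of H/ACA ribonucleoproteins. It read 5.94, 6.17, 5.84, 6.21 and 6.41 at 0 h and 6.96 to 7.29 (median 7.03) at 24 h (1.93-fold, 0.95 ± 0.09, adjusted p = 1.98e-06), so that all 24 h arrays were above all 0 h arrays. Nop58, of the box C/D particles that methylate ribosomal RNA, rose by 0.74, and Rrs1, an assembly factor of the large subunit, by 0.44. Without single arrays the count of risen members ran from 9 to 16. Of 39 translation factors, 9 rose, 2 fell and 28 did not pass (median log2 difference 0.10). Eif4ebp1, the repressor that binds the cap-binding factor eIF4E, read 7.02, 7.09, 7.24, 7.59 and 7.63 at 0 h and 8.70 to 9.55 (median 9.06) at 24 h, a 3.5-fold rise (1.81 ± 0.14, adjusted p = 8.26e-08) that stood well apart from the other members. Eif3c and Eif6, an initiation factor subunit and a factor of the large ribosomal subunit, rose by 0.68 and 0.65. Of 40 spliceosome and RNA-binding genes, 4 rose, 1 fell and 35 did not pass (median log2 difference 0.07). In this and the lists that follow, counts of 3 or fewer in a direction moved by at most 2 when single arrays were left out or batch was a block, beside larger moves that are given.

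Most subunits of the proteasome, the barrel that degrades ubiquitin-tagged proteins, rose. Of 35 measured subunits, 23 rose, 0 fell and 12 did not pass (median log2 difference 0.39), or 65.7% higher against 5.44% of all genes. The largest rise among them was in Psma7, of the outer ring of the core, which read 8.33, 8.25, 7.79, 7.44 and 7.91 at 0 h and 8.53 to 8.86 (median 8.70) at 24 h (1.7-fold, 0.76 ± 0.12, adjusted p = 0.000422). The base ATPases Psmc5 and Psmc6 rose by 0.68 and 0.67, the core subunit Psma5 by 0.66 and the lid subunit Psmd13 by 0.66. The count was 18 without 0 h replicate 4 and 27 without 24 h replicate 5. All the risen subunits moved by less than 2-fold.

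Larger changes were measured in the immunoproteasome, whose 3 catalytic subunits replace those of the standard core and cut peptides for MHC class I. Psmb10 read 7.04, 7.38, 7.77, 7.06 and 7.36 at 0 h and 8.83 to 9.53 (median 9.12) at 24 h (3.57-fold, 1.84 ± 0.13, adjusted p = 3.18e-08). Psmb8 read 6.25, 6.23, 6.35, 6.10 and 6.26 at 0 h and 7.46 to 7.81 (median 7.58) at 24 h (2.59-fold, 1.37 ± 0.08, adjusted p = 5.17e-09), and Psmb9 rose by 1.20. None of the 3 overlapped between times. Of 17 class I presentation genes, 12 rose, 3 fell and 2 did not pass (median log2 difference 0.66). B2m read 9.79, 9.56, 10.00, 9.88 and 9.82 at 0 h and 10.20 to 11.15 (median 11.05) at 24 h (2.03-fold, 1.02 ± 0.21, adjusted p = 0.00314). The members that fell were the ER chaperones of the peptide-loading complex and calnexin, with Calr at -0.85. H2-Aa, H2-Ab1 and H2-Eb1, of MHC class II, are given with the macrophages.

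**Figure D2:**
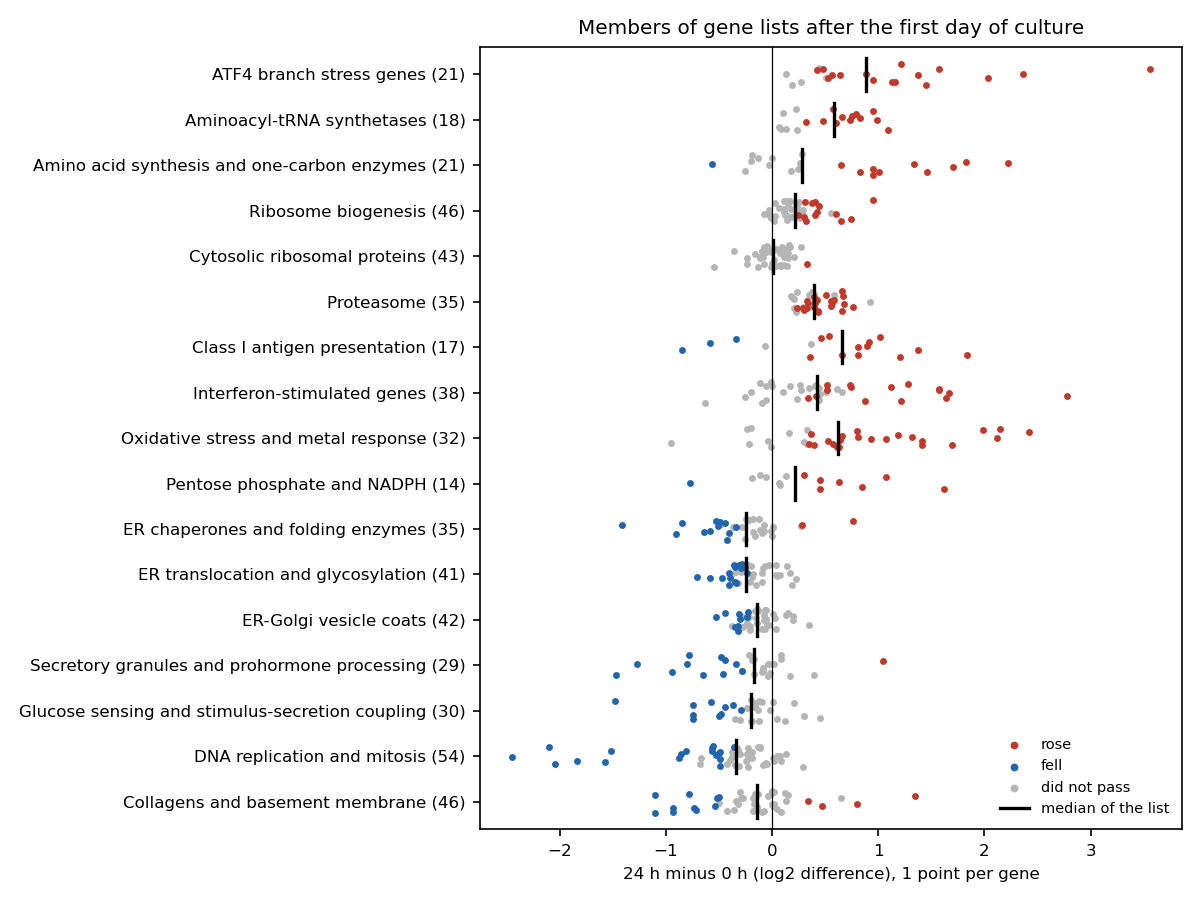
Log2 difference (24 h minus 0 h) of each measured member of 17 gene lists, with 1 point per gene, red where it rose, blue where it fell and grey where it did not pass, and the list's median as a black bar; the number of measured members is in parentheses. Medians run from 0.88 for the ATF4 branch to -0.34 for DNA replication and mitosis, and ribosomal proteins are centred on 0.01.

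Genes of the first steps of the secretory pathway fell in part. Of 35 ER chaperones and folding enzymes, 2 rose, 12 fell and 21 did not pass (median log2 difference -0.25). Fkbp11, a prolyl isomerase of secretory cells, read 7.03, 7.08, 6.70, 6.77 and 6.64 at 0 h and 5.05 to 5.99 (median 5.37) at 24 h (2.66-fold, -1.41 ± 0.14, adjusted p = 2.17e-06), though without probe sets that can match several transcripts its remaining probe set did not pass (log2 difference -0.08, adjusted p = 0.802). Calr read 11.04, 11.01, 11.23, 11.16 and 10.94 at 0 h and 9.94 to 10.55 (median 10.25) at 24 h (1.8-fold, -0.85 ± 0.12, adjusted p = 7.76e-05). For both, the highest 24 h array lay under the lowest 0 h array. Txndc5, a disulphide isomerase, fell by 0.64 on the log2 scale. Derl3, which takes part in the removal of misfolded ER proteins, was lower by 4.23-fold (-2.08). The exception with the largest rise was Ero1a (0.76), an oxidase that makes disulphide bonds and responds to hypoxia.

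Part of the genes of entry into the ER and of export from it fell, and 0 rose. Of 41 genes of translocation and N-glycosylation, 0 rose, 15 fell and 26 did not pass (median log2 difference -0.25), or 36.6% lower. Sec63, which helps pull chains through the translocon, read 9.58, 9.48, 9.13, 9.34 and 9.45 at 0 h and 8.43 to 8.84 (median 8.71) at 24 h (1.64-fold, -0.71 ± 0.09, adjusted p = 1.85e-05), although the mean of all its probe sets did not pass (-0.28, adjusted p = 0.156). Lman2, a cargo lectin, fell (-0.59), as did Rpn1 (-0.47), of the oligosaccharyltransferase, and Spcs1 (-0.41), of the signal peptidase. Without 0 h replicate 1, 10 members fell. Of 42 genes of the vesicle coats between ER and Golgi, 0 rose, 9 fell and 33 did not pass (median log2 difference -0.14), among them Copz2 (-0.53), a coatomer subunit, and Sar1b (-0.32), the GTPase that starts COPII vesicles. That count was 4 without 0 h replicate 4, 4 without 0 h replicate 6 and 4 with the acinar marker mean in the fit, and 6 with batch as a block. With the acinar covariate 10 ER chaperones and 13 translocation genes fell. Acinar cells are rich in this machinery. Their markers averaged 5.03 to 7.71 at 0 h and 3.70 to 6.55 at 24 h, which overlap, and 1 of the 18 fell. The part of acinar cells in these falls was not tested beyond the fits named.

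Protein quality control in mitochondria, cytosol and lysosomes changed in part. Of 36 genes of mitochondrial import and dynamics, 7 rose, 2 fell and 27 did not pass (median log2 difference 0.15). Lonp1, the main protease of the matrix, read 8.49, 8.39, 8.22, 8.34 and 8.29 at 0 h and 9.25 to 9.93 (median 9.62) at 24 h (2.34-fold, 1.23 ± 0.13, adjusted p = 2.73e-06), with a clear gap between the groups. Hspa9, the matrix chaperone mortalin, rose by 0.86 and Vdac3, an outer membrane channel, by 0.49. Of 38 cytosolic heat shock proteins, 5 rose, 2 fell and 31 did not pass (median log2 difference 0.14). Bag3, a cochaperone of HSP70, rose by 0.65, and the small heat shock protein Cryab fell at least 1.66-fold, from levels that were close to background at 0 h on all arrays but replicate 3 (4.74). The count of risen members was 3 without 0 h replicate 1, 2 or 4 or without 24 h replicate 3 or 4. Of 31 autophagy genes, 2 rose, 2 fell and 27 did not pass. The receptor Sqstm1 had the largest change of that list and read 10.11, 9.84, 10.25, 10.10 and 10.13 at 0 h and 11.02 to 11.54 (median 11.29) at 24 h (2.26-fold, 1.18 ± 0.10, adjusted p = 2.73e-07). Of 45 lysosomal genes, 9 rose, 2 fell and 34 did not pass (median log2 difference 0.12), and with batch as a block 4 were lower. The proteases Ctsb and Ctsl, cathepsins B and L, rose by 0.93 and 0.85, while Glb1, the lysosomal beta-galactosidase, fell (-0.50).

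Most antioxidant genes of the list rose, and so did part of the genes that supply NADPH. Mt2 read 8.54, 8.48, 8.51, 8.74 and 9.32 at 0 h and 9.97 to 11.36 (median 10.91) at 24 h (4.35-fold, 2.12 ± 0.21, adjusted p = 2.02e-06). Gstp1 read 8.87, 8.59, 9.23, 8.88 and 8.90 at 0 h and 10.59 to 11.11 (median 10.91) at 24 h (3.97-fold, 1.99 ± 0.11, adjusted p = 8.84e-10). In both, the lowest 24 h array was above every 0 h array, and Mt2 was the more variable at 24 h. In the wider list of 32 oxidant and metal response genes, 22 rose, 0 fell and 10 did not pass. Hmox1, the inducible heme oxygenase, rose by 2.42, Gpx2, a glutathione peroxidase of epithelia, by 2.15 and Gstm1, another glutathione transferase, by 1.69. Of 14 genes of the pentose phosphate route and NADPH, 7 rose, 1 fell and 6 did not pass (median log2 difference 0.21). Me1, the cytosolic malic enzyme, read 5.79, 5.78, 5.62, 5.86 and 5.82 at 0 h and 7.03 to 7.92 (median 7.25) at 24 h (3.06-fold, 1.62 ± 0.15, adjusted p = 1.35e-06), Txnrd1, thioredoxin reductase, rose by 1.07 and Pgd, which yields NADPH, by 0.85. Nnt, the mitochondrial transhydrogenase, fell (-0.77 ± 0.07, adjusted p = 6.2e-07). The letters TGACNNNGC of the antioxidant response element occurred in 14.2% of all promoter windows, in 6 of 28 windows of the oxidant list and in 19.7% of windows of genes that rose at least 2-fold. That share does not set the oxidant list apart. The same letters were in 6 of 20 windows of the ATF4 list, 3 of 12 of the tRNA synthetases and 9 of 45 of DNA replication and mitosis. TGCNCNC (metal response element) was not more frequent: 57.5% of all windows held it, 14 of 28 of the oxidant list and 55.3% of those that rose at least 2-fold. The letters CCAAT were in 38.2% of all windows, 14 of 28 of the oxidant list and 35.6% of those that rose at least 2-fold. ACGTG (hypoxia response element) was in 23.2% of all windows and 14.4% of those that rose at least 2-fold.

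Genes of iron handling changed in both directions. Of 19 genes, 7 rose, 3 fell and 9 did not pass (median log2 difference 0.03). Slc40a1, ferroportin, the only known cellular iron exporter, read 8.01, 8.17, 8.25, 8.56 and 8.74 at 0 h and 9.33 to 9.65 (median 9.41) at 24 h (2.15-fold, 1.11 ± 0.11, adjusted p = 1.43e-06). Hfe, a regulator of iron uptake, rose by 1.30, and Steap1, of the STEAP family, by 1.52. The related metalloreductase Steap2 (-0.61) fell. The exporter's arrays did not overlap between times, and the 2 STEAP genes had opposite signs.

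The respiratory chain had a smaller share of changed genes than all genes did, unlike glycolysis and cholesterol synthesis. Of 75 subunits of the respiratory chain and ATP synthase, 4 rose, 2 fell and 69 did not pass (median log2 difference 0.01). Cox6a2, a cytochrome oxidase subunit otherwise found in heart and muscle, read 9.49, 9.64, 9.65, 9.65 and 9.79 at 0 h and 7.87 to 8.90 (median 8.05) at 24 h (2.74-fold, -1.46 ± 0.14, adjusted p = 1.61e-06), the largest change of a list with a median near 0. Of 37 genes of the citric acid cycle and mitochondrial shuttles, 4 rose, 1 fell and 32 did not pass. Glycolytic genes numbered 22, of which 4 rose, 2 fell and 16 did not pass (median log2 difference 0.27); without 24 h replicate 5 the risen members were 9, and with batch as a block 8. Pfkp, a phosphofructokinase, rose by 0.95. In lipid metabolism, Pmvk, of the mevalonate pathway, rose (1.11) among 21 cholesterol genes of which 4 rose, 2 fell and 15 did not pass, with 7 risen without 0 h replicate 6. Srebf1, the lipogenic transcription factor, fell (-0.75), and Mgll, monoacylglycerol lipase, was at least 4-fold lower on its representative probe set. The fatty acid binding protein Fabp4 and its regulator Pparg rose by 1.27 and 1.07. The mean of all probe sets gave -0.91 for Mgll and 0.60 for Fabp4. Without probe sets that can match several transcripts, Mgll gave -1.29. Of 37 genes of fatty acid synthesis and storage, 1 rose, 3 fell and 33 did not pass, and of 30 of fatty acid oxidation, 3 rose, 3 fell and 24 did not pass.

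Several genes that store hormones in granules fell. Secretory granule and prohormone genes numbered 29, of which 1 rose, 11 fell and 17 did not pass (median log2 difference -0.17), or 37.9% lower. Slc30a8 read 11.18, 11.25, 11.33, 11.22 and 11.35 at 0 h and 10.34 to 10.91 (median 10.62) at 24 h (1.57-fold, -0.65 ± 0.10, adjusted p = 0.000159). Ucn3, urocortin 3, a peptide of mature beta cells, fell by 1.75-fold (-0.80) and Npy, neuropeptide Y, by 1.92-fold (-0.94). The only rise was in Vgf, a granin-like precursor, which read 5.46, 5.73, 5.42, 5.44 and 5.40 at 0 h and 6.20 to 7.21 (median 6.46) at 24 h (2.06-fold, 1.04 ± 0.20, adjusted p = 0.0021). The count of fallen members was 7 without 0 h replicate 1 and 7 without 0 h replicate 4. Of 39 exocytosis genes, 2 rose, 5 fell and 32 did not pass (median log2 difference -0.09). That is 12.8% lower against 6.66% of all genes and 8.96% of those above the table's median. Without 0 h replicate 1 or 4 or 24 h replicate 6, 3 fell, and with batch as a block 2 did. Rab3a, the granule GTPase, was among the fallen (-0.55).

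Channels, pumps and enzymes that couple glucose to secretion fell in part: of 30, 0 rose, 10 fell and 20 did not pass (median log2 difference -0.20). Trpm5, a calcium-activated cation channel, read 9.57, 9.16, 8.75, 9.02 and 9.24 at 0 h and 7.34 to 7.99 (median 7.65) at 24 h, a 2.79-fold fall (-1.48 ± 0.15, adjusted p = 3.18e-06) and the largest of the list. The potassium channels Kcnk16 (-0.75) and Kcnmb2 (-0.58) and the sodium channel Scn3a (-0.75) fell, as did Gjd2 (-0.63), connexin 36, which joins beta cells electrically. Of 36 islet transcription factors, 0 rose, 6 fell and 30 did not pass (median log2 difference -0.13). Nkx6-1, which maintains the beta cell programme, read 8.69, 8.49, 8.44, 8.32 and 8.51 at 0 h and 7.46 to 8.0 (median 7.75) at 24 h (1.68-fold, -0.75 ± 0.11, adjusted p = 9.34e-05). Foxa2 (-0.48) and Bhlha15 (-0.82), the latter with overlapping arrays, also fell. Of 23 genes known to be kept silent in mature beta cells, 1 rose, 7 fell and 15 did not pass.

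Of 32 hormone and nutrient receptors, 1 rose, 6 fell and 25 did not pass. P2ry1, a purine receptor that responds to ADP, read 6.39, 6.91, 6.22, 6.25 and 7.08 at 0 h and 5.06 to 5.23 (median 5.15) at 24 h (2.68-fold, -1.42 ± 0.13, adjusted p = 1.07e-06). The receptors of galanin, Galr1 (-0.83), and oxytocin, Oxtr (-0.88), fell with overlapping arrays. Igf1r, the receptor of insulin-like growth factor 1, was the only one that rose, from 7.42, 7.05, 7.38, 7.20 and 7.52 at 0 h to 8.22 to 8.97 (median 8.55) at 24 h (2.39-fold, 1.26 ± 0.12, adjusted p = 8.79e-07). With the mean of all probe sets of a gene, 3 receptors fell. Of 46 genes of G protein and cAMP signalling, 6 rose, 4 fell and 36 did not pass. The RGS proteins, which switch off G protein signals, had large changes of both signs. Rgs4 read 8.21, 7.71, 7.57, 7.75 and 8.27 at 0 h and 10.29 to 11.25 (median 10.96) at 24 h (7.94-fold, 2.99 ± 0.18, adjusted p = 5.09e-09), and Rgs2 read 10.16, 11.50, 9.20, 9.98 and 10.54 at 0 h and 6.75 to 7.85 (median 7.49) at 24 h (7.42-fold, -2.89 ± 0.30, adjusted p = 3.5e-06). The arrays of the times were far apart in both genes, upward in Rgs4 and downward in Rgs2. Rgs5, known from pericytes, fell (-3.07), while Rgs17 and Gnai2, an inhibitory G protein subunit, rose by 1.0 and 0.80.

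**Figure D3:**
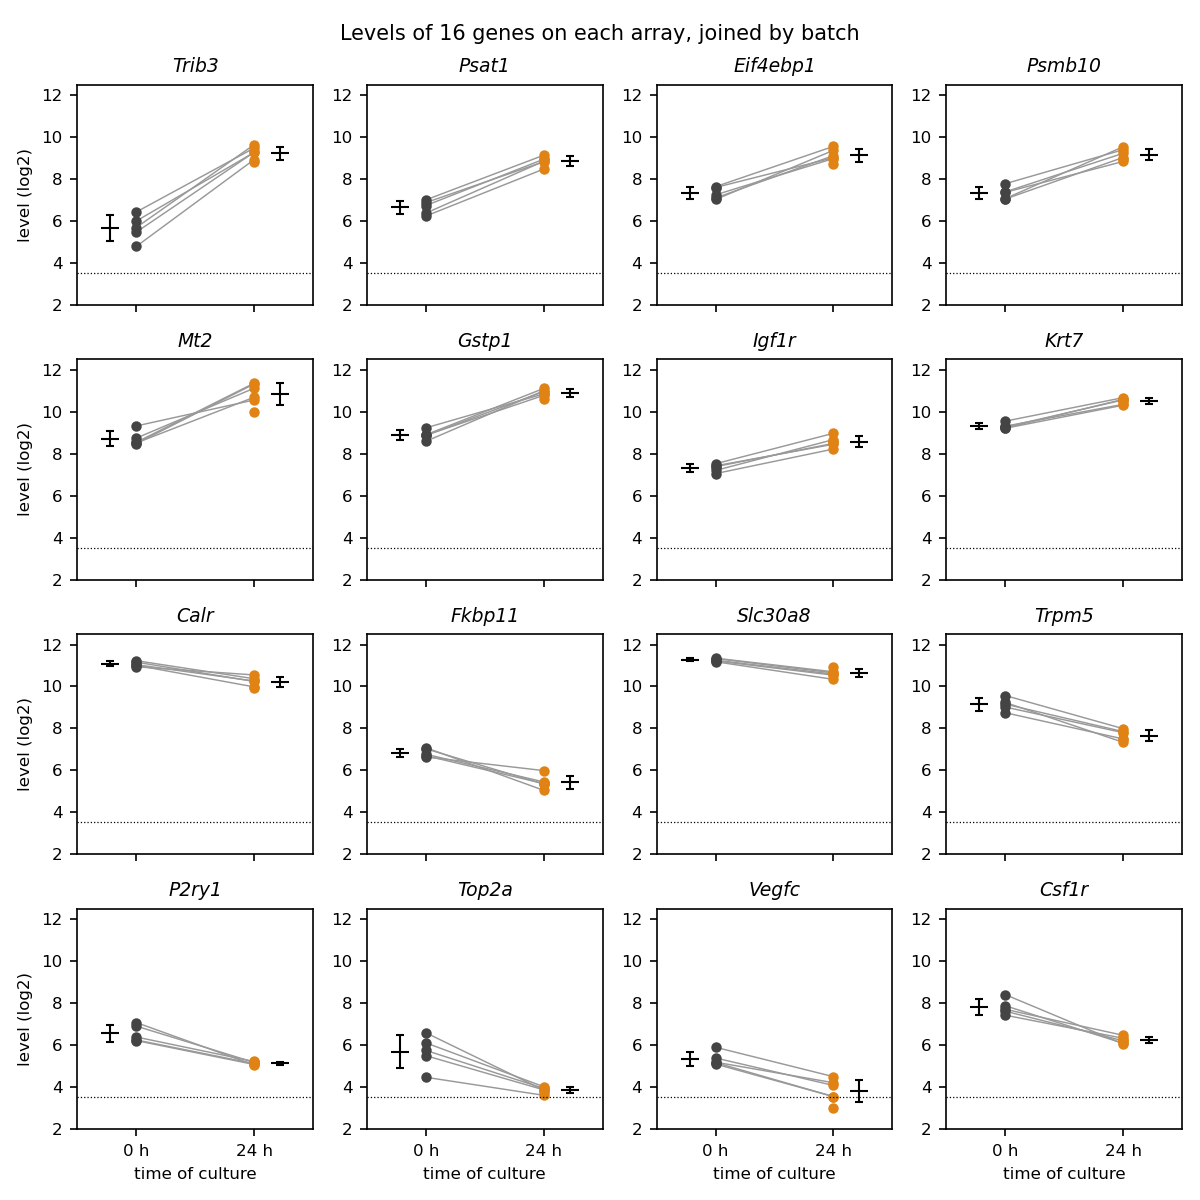
Levels (log2) of 16 genes on the 5 arrays at 0 h (dark) and the 6 at 24 h (orange), with lines joining the portions of a batch, a bar for the mean and SD beside each group and a dotted line at the table's median of 3.52. The groups do not overlap in any of the 16 genes, some of which were named by a rule that required it, against 8.78% of all genes. Part of the Vegfc points at 24 h reach the table's median.

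Many interferon-stimulated genes rose. Of 38 interferon-stimulated genes, 15 rose, 0 fell and 23 did not pass (median log2 difference 0.42), or 39.5% higher, and the largest rise was in Gbp6 (2.78), a guanylate-binding protein. Ifit3, an antiviral protein, read 5.41, 5.09, 5.99, 5.56 and 5.69 at 0 h and 6.17 to 8.12 (median 7.37) at 24 h (3.17-fold, 1.67 ± 0.26, adjusted p = 0.000292). Gbp3, an interferon-induced GTPase, read 4.55, 4.98, 5.20, 4.99 and 5.41 at 0 h and 5.46 to 7.50 (median 6.60) at 24 h (2.97-fold, 1.57 ± 0.26, adjusted p = 0.000512). Neither gene overlapped between times, though 24 h replicate 5 (6.17 in Ifit3 and 5.46 in Gbp3) was close to the highest 0 h array. The mean of the whole list did overlap, at 5.22 to 5.49 at 0 h and 5.38 to 6.26 at 24 h. With batch as a block, 20 of the list rose. Their promoters are shown for the interferon-stimulated response element, searched as GAAA, any 2 bases and GAAA again on both strands. These letters occurred in 437 of 14452 windows (3.02%), in 17 of 29 windows of the interferon list and in 9.85% of the windows of genes that rose at least 2-fold. Within the list, 6 of the 12 risen members with a window held it. The 250 bases before the start are chr19:34583279-34583528 (plus strand) for Ifit3 and chr3:142559794-142560043 (plus strand) for Gbp3, GRCm38.p6, with 2 matches each on the opposite strand in capitals. Those of Gbp3 overlap each other, and none overlaps another motif searched.
Ifit3: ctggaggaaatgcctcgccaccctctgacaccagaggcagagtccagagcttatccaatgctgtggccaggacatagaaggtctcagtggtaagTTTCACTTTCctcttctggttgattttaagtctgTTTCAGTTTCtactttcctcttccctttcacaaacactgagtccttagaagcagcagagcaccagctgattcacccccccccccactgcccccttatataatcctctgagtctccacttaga
Gbp3: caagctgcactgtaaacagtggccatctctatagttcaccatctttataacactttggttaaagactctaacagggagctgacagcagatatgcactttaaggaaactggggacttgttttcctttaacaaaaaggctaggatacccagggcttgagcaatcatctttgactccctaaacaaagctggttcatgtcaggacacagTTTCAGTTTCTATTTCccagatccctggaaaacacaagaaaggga

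Acute phase and complement genes held several large rises. Of 33 members, 7 rose, 4 fell and 22 did not pass (median log2 difference 0.09). Cfb, complement factor B, read 3.97, 3.73, 4.08, 3.62 and 3.81 at 0 h and 4.75 to 6.87 (median 6.32) at 24 h (4.78-fold, 2.26 ± 0.43, adjusted p = 0.00173). Serping1, the inhibitor of C1, read 7.25, 6.72, 7.74, 7.44 and 6.55 at 0 h and 8.58 to 9.63 (median 9.22) at 24 h (4.05-fold, 2.02 ± 0.26, adjusted p = 3.08e-05). The arrays of Serping1 were far above the table's median at both times, whereas those of Cfb at 0 h were close to it. Serpina3n, a protease inhibitor of the acute phase, rose at least 4.71-fold, and C8b, of the membrane attack complex, fell (-1.65). Of 24 NF-kappaB targets, 5 rose, 0 fell and 19 did not pass, with Bcl3, an IkappaB family member, at 1.49 and the receptor Cd40 at 0.75. Among 39 chemokines and cytokines, 5 rose, 1 fell and 33 did not pass, and 8 rose without 24 h replicate 5. Ccl5 rose 3.92-fold and Cxcl16, a membrane-bound chemokine, by 0.82. In the TNF receptor superfamily and death receptor list, 4 rose, 1 fell and 21 did not pass of 26, with Tnfrsf12a, the receptor of TWEAK, at 0.92 and Tnfrsf1a at 0.84. Of 33 BCL2, caspase and gasdermin genes, 4 rose, 2 fell and 27 did not pass.

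Part of the genes of cell division fell. Of 54 genes of DNA replication and mitosis, 0 rose, 18 fell and 36 did not pass (median log2 difference -0.34), or 33.3% lower. Among them Pbk, a mitotic kinase, and Mki67, the proliferation marker Ki-67, fell by 5.47-fold and 4.28-fold. Top2a, the topoisomerase of dividing cells, read 6.11, 5.50, 5.75, 6.59 and 4.47 at 0 h and 3.61 to 4.02 (median 3.86) at 24 h (3.58-fold, -1.84 ± 0.28, adjusted p = 0.000216). Cdk1, the kinase of mitotic entry, read 5.25, 4.93, 5.19, 5.55 and 4.40 at 0 h and 3.25 to 3.99 (median 3.63) at 24 h (at least 2.7-fold, -1.43 ± 0.18, adjusted p = 3.71e-05). The 0 h arrays of both were spread, and the 24 h arrays lay close to the table's median. The mean of all probe sets of Top2a gave -0.59. Without 0 h replicate 4, 12 members fell. The cell cycle homology region, searched as TTTGAA on both strands, occurred in 1929 of 14452 windows (13.3%) and in 22 of 45 windows of the replication list, 10 of them among the 15 fallen members with a window. The bases before the start are chr11:99024190-99024439 (minus strand) for Top2a and chr10:69352913-69353162 (minus strand) for Cdk1, GRCm38.p6, with the matches in capitals and no overlap with another motif searched.
Top2a: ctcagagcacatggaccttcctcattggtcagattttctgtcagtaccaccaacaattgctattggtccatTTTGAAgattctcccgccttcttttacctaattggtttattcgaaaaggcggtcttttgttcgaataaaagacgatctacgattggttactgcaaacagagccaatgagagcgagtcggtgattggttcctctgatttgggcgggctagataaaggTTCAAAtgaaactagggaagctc
Cdk1: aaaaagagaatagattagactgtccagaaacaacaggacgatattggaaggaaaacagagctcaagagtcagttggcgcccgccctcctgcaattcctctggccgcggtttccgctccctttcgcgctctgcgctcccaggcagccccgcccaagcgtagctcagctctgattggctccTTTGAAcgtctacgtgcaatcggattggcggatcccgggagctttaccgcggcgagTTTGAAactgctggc

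The letters CCAAT, searched likewise, occurred in 38.2% of all windows and in 32 of 45 windows of that list. The abundant cyclin of beta cells fell too: Ccnd2 read 12.32, 12.34, 12.32, 12.42 and 12.41 at 0 h and 11.29 to 11.98 (median 11.68) at 24 h (1.62-fold, -0.69 ± 0.10, adjusted p = 0.000128). Cdkn1a, the p21 inhibitor of cyclin-dependent kinases, rose by 1.76, and Gadd45a, induced by growth arrest and DNA damage, by 1.80, within a list of 35 p53 targets of which 9 rose, 2 fell and 24 did not pass (25.7% higher). Of 38 chromatin genes, 2 rose, 4 fell and 32 did not pass, with Hdac9, a class II deacetylase, falling at least 2.85-fold, and of 32 repair genes, 2 rose, 0 fell and 30 did not pass.

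Signalling lists changed to different degrees. Of 35 immediate early genes, 7 rose, 4 fell and 24 did not pass (20% higher and 11.4% lower). Ier3, an early gene that limits apoptosis, had the largest rise of them (2.37), the bZIP factor Maff rose (0.92) and Gadd45b (-1.69) and Ier5 (-0.68) fell. Of 32 genes of MAPK feedback, 5 rose, 3 fell and 24 did not pass (15.6% higher and 9.38% lower), among them the phosphatase Dusp14 (0.71) and the kinase Map2k3 (0.71). In the circadian clock list of 21, 3 rose, 0 fell and 18 did not pass. Bhlhe40, a clock repressor that also answers stress, read 5.98, 5.13, 5.90, 6.04 and 6.48 at 0 h and 6.63 to 8.51 (median 7.68) at 24 h (3.44-fold, 1.78 ± 0.26, adjusted p = 0.000161), and Ciart, another repressor of the clock, rose by 0.94.

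Ligands, receptors and targets of the TGF-beta family did not move as 1 group: of 46, 4 rose, 6 fell and 36 did not pass. Inhbb, the activin B subunit, read 3.37, 3.11, 3.30, 3.46 and 3.64 at 0 h and 5.05 to 5.90 (median 5.47) at 24 h (at least 4.34-fold, 2.12 ± 0.15, adjusted p = 2.5e-08). Tgfbi, a matrix protein induced by TGF-beta, rose by 2.25 and Id2, an inhibitor of helix-loop-helix factors, by 1.94, while the receptor Tgfbr2 (-0.77) and the decoy receptor Bambi (-0.69) fell. Of 57 growth factor and guidance genes, 4 rose, 10 fell and 43 did not pass (median log2 difference -0.08). Vegfc, a growth factor of lymphatic vessels, read 5.19, 5.90, 5.10, 5.39 and 5.17 at 0 h and 3.02 to 4.50 (median 3.82) at 24 h (at least 2.89-fold, -1.53 ± 0.21, adjusted p = 7.76e-05), and Nrp1, a coreceptor of VEGF, fell 3.23-fold (-1.69). Fgf12 fell (-1.20), Fgf1 fell at least 2.4-fold to near background, and Angpt2, an endothelial ligand that destabilises vessels, rose (1.05). Of 44 Wnt genes, 1 rose, 3 fell and 40 did not pass, with the secreted antagonist Sfrp5 at -1.37, and of 32 Notch genes, 0 rose, 2 fell and 30 did not pass. In the list of IGF binding proteins and insulin signalling, 3 rose, 4 fell and 32 did not pass of 39, including Igfbp5 (2.52) and Akt2 (0.63) upward and Igfbp7 (-0.54) downward. Igfbp5 did not pass without probe sets that can match several transcripts (0.19, adjusted p = 0.518).

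Genes of the cytoskeleton and the cell surface changed in both directions. Of 56 genes of a cytoskeleton list that is not of actin and tubulin genes alone, 9 rose, 11 fell and 36 did not pass. Lgals3, galectin 3, read 4.06, 3.74, 5.80, 4.41 and 4.05 at 0 h and 6.43 to 7.40 (median 6.66) at 24 h (5.09-fold, 2.35 ± 0.28, adjusted p = 1.52e-05). Tubb6, a tubulin widely expressed outside neurons, rose at least 2.93-fold and Vim, vimentin, by 0.97, and the smooth muscle genes Tagln and Myl9 fell at least 1.95-fold and at least 2.53-fold. Of 41 junction and keratin genes, 7 rose, 4 fell and 30 did not pass, with 2 lower without 0 h replicate 1 or 2 or without 24 h replicate 1, 3, 4 or 5. Krt7 read 9.31, 9.21, 9.55, 9.27 and 9.22 at 0 h and 10.31 to 10.67 (median 10.53) at 24 h (2.28-fold, 1.19 ± 0.10, adjusted p = 3.08e-07), and Nrcam, an adhesion molecule, rose by 1.36. Duct cells also make Krt7: the mean of the 10 duct markers was 3.76 to 4.43 at 0 h and 3.91 to 4.02 at 24 h, and the part of duct cells in the rise of Krt7 was not tested. At 0 h Krt7 was highest on replicate 3 (9.55), the array with the high gut markers. Of 29 genes of an integrin list that also holds other surface proteins, 4 rose, 3 fell and 22 did not pass, with Cd82, a tetraspanin, at 1.10.

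More matrix genes fell than rose: of 46 collagens and basement membrane genes, 4 rose, 10 fell and 32 did not pass (median log2 difference -0.15), or 8.7% higher and 21.7% lower. Col3a1, of fibrillar collagen III, fell (-1.10), as did the proteoglycan Bgn (-0.93), and Thbs1, thrombospondin 1, rose (1.35). Of 39 proteases and their inhibitors, 8 rose, 2 fell and 29 did not pass. Plat, tissue plasminogen activator, read 5.94, 5.91, 5.78, 6.13 and 6.51 at 0 h and 7.26 to 7.75 (median 7.34) at 24 h (2.55-fold, 1.35 ± 0.15, adjusted p = 1.02e-05), and the metalloproteases Adamts1 and Adamts4 rose 2.23-fold and at least 2.04-fold. Tfpi2, a protease inhibitor, rose at least 11.2-fold from under the table's median, and Timp3, an inhibitor of metalloproteases, fell (-3.02). The mean of the fibroblast and stellate markers was 4.31 to 4.52 at 0 h and 4.14 to 4.28 at 24 h, and of its 15 genes 1 rose, 4 fell and 10 did not pass, with 2 fallen without 0 h replicate 3 or 24 h replicate 2.

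Markers of vessels, pericytes and macrophages fell in part. The endothelial mean was 5.63 to 5.95 at 0 h and 4.93 to 5.17 at 24 h. Of its 27 genes, 3 rose, 11 fell (40.7%) and 13 did not pass. Their median log2 difference was only -0.16, against -0.72 for the mean, in which steep falls weigh more. Plvap, of the diaphragms of fenestrated capillaries, read 7.50, 7.61, 8.09, 7.66 and 7.85 at 0 h and 5.30 to 6.48 (median 5.72) at 24 h (3.83-fold, -1.94 ± 0.17, adjusted p = 6.25e-07). Btnl9, a butyrophilin-like protein of endothelium, fell further (-3.68), as did Ptprb (-2.34), an endothelial phosphatase, and Epas1 (-2.30), the hypoxia factor HIF-2alpha. Not all of the list fell: Sox17, an arterial transcription factor, rose at least 2.47-fold (1.31) with overlapping arrays. In the list of caveolae and pericytes the mean was 4.94 to 5.21 at 0 h and 3.99 to 4.20 at 24 h, with 1 rose, 9 fell and 6 did not pass of 16, and Cav1, caveolin 1, at -2.75. The member that rose was Kcnj8 (1.34), a potassium channel of pericytes. Other genes of the 30 largest falls that endothelium is known to express were Podxl (-2.04) and Tm4sf1 (-1.84), named here without a list of their own.

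Macrophage and dendritic cell markers averaged 5.35 to 5.88 at 0 h and 4.92 to 5.24 at 24 h, and 1 rose, 11 fell and 15 did not pass of 27. Csf1r, the receptor that macrophages need for survival, read 7.62, 7.43, 8.41, 7.88 and 7.71 at 0 h and 6.06 to 6.47 (median 6.22) at 24 h (2.98-fold, -1.58 ± 0.14, adjusted p = 7.1e-07). H2-Aa, of MHC class II, read 9.61, 9.28, 10.13, 9.54 and 9.84 at 0 h and 7.56 to 8.31 (median 8.03) at 24 h (3.23-fold, -1.69 ± 0.19, adjusted p = 7.23e-06). H2-Ab1 (-1.54) and H2-Eb1 (-1.62), also of class II, fell as well. Cd68, a lysosomal protein rich in macrophages, went the other way, from 4.01, 3.95, 3.69, 3.67 and 3.65 at 0 h to 5.29 to 6.26 (median 5.55) at 24 h (3.57-fold, 1.84 ± 0.15, adjusted p = 2.32e-07). Lymphocyte and neutrophil markers averaged 3.40 to 3.44 and 3.15 to 3.24 at 0 h, and 6 of 11 and 4 of 8 were under the table's median on all 11 arrays. None of either list passed (0 of 11 and 0 of 8 by limma's test). Of the beta cell markers, 0 rose, 6 fell and 2 did not pass of 8, and their mean was at most 11.09 at 0 h and 10.48 to 10.77 at 24 h, with no overlap between times. Markers of the other endocrine cells averaged 8.70 to 9.43 at 0 h and 8.18 to 8.79 at 24 h, with 0 rose, 6 fell and 3 did not pass of 9, with 3 lower without 0 h replicate 1 or 3 or without 24 h replicate 2 or 4. The acinar list gave 0 rose, 1 fell and 17 did not pass of 18, the duct list 2 rose, 0 fell and 8 did not pass of 10 and the gut epithelium list 0 rose, 1 fell and 11 did not pass of 12.

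**Figure D4:**
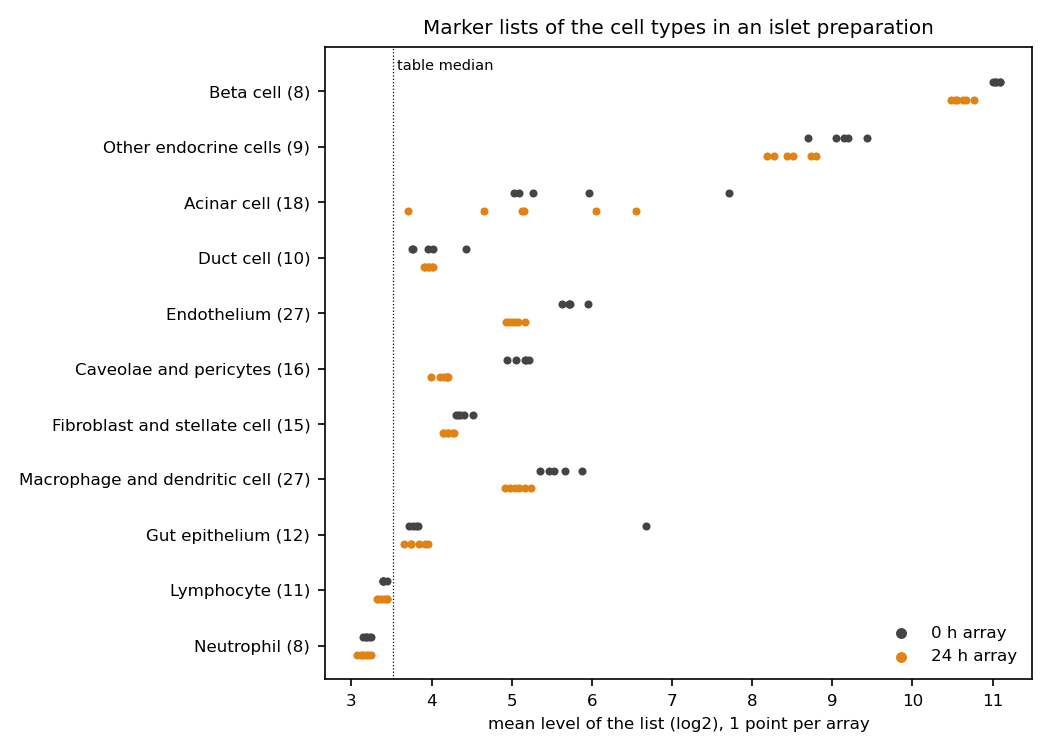
Mean level (log2) of the markers of 11 cell types on each array at 0 h (dark) and 24 h (orange), with the number of markers measured in parentheses and the table's median as a dotted line. Endothelium, caveolae and pericytes, macrophages and beta cells show arrays of the times apart from each other. Fibroblast and stellate cells do so by a narrow gap (4.31 and above at 0 h, at most 4.28 at 24 h). Acinar markers are spread at both times, and 1 array at 0 h stands apart for gut epithelium.

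Some of the 30 largest rises and falls belonged to none of the lists above. Cyp1a1, a cytochrome P450 induced through the aryl hydrocarbon receptor, read 2.73, 2.70, 2.89, 2.46 and 2.57 at 0 h and 4.30 to 5.41 (median 4.77) at 24 h (at least 4.5-fold, 2.17 ± 0.21, adjusted p = 1.51e-06). Procr, the endothelial protein C receptor, rose 4.52-fold, Stbd1, which tethers glycogen to membranes, at least 4.38-fold, Angptl6, a secreted angiopoietin-like protein, 4.66-fold, and Acp5, the tartrate-resistant acid phosphatase, at least 4.13-fold. Crybb3, a beta crystallin, rose by 3.32. Among the falls, Kitl, the ligand of the receptor Kit, fell 3.36-fold (-1.75), and the lipid phosphate phosphatases Plpp1 (-2.06) and Plpp3 (-1.88) fell together.

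For 22 genes, probe sets of the same gene passed in opposite directions, so that a level by gene hides them. The pair with the largest smaller change was Cdh8, a cadherin, at 0.62 and -0.68. Pclo, a scaffold of the active zone that takes part in insulin exocytosis, had probe sets at 0.68 and -0.62. Ndufs4, of respiratory complex I, gave 0.44 and -0.76, and Hspa8, the constitutive HSP70, 0.42 and -0.51. Kcmf1, a ubiquitin ligase, gave 0.41 and -0.75, and Eif1ax, an initiation factor, 0.60 and -0.64. Map4, a microtubule-binding protein, gave 0.48 and -0.44, of which the falling probe set had a mean level of 2.30, under the table's median. The falling probe sets of Ndufs4, Hspa8 and Eif1ax had mean levels of 3.88, 3.97 and 3.61, close to that median.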

How the data were processed

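RNA of mouse islets was read on Affymetrix Mouse Genome 430 2.0 arrays. The values deposited by the authors are log2 levels per probe set made with RMA, which subtracts background, quantile normalizes arrays and summarises probes, per the submitters' processing notes, of which the sources used here give no version. Quantile normalization equalises the arrays' distributions, so that a change of total RNA cannot be seen, and RMA folds are compressed at low levels. The 64 control probe sets were left out. Of the other 45037, 34945 had 1 gene symbol, 932 had several and 9160 were not listed in the annotation used.

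Differences were tested with limma 3.58.1 in R 4.3.3 (lmFit and eBayes, 1 mean per time over all 17 arrays so that the 48 h arrays share the estimate of spread), with Benjamini-Hochberg adjustment over the 45037 probe sets and a threshold of 0.05. Each replicate was a separate batch pooled from 4 mice, and the number of arrays limits the precision. A gene was represented by its probe set with the highest mean over the 17 arrays, which was a choice among several for 9010 of 18193 genes.

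Genes to name were taken from the 30 largest rises and falls above the table's median whose arrays did not overlap, the 12 largest of each among genes with a mean of at least 10, up to 5 passing members of each list, up to 10 genes with probe sets that passed in opposite directions, and the hormones. The text names 66 of the 82 genes of the first pair of sets and part of the others, so that it is not a full list of the largest changes. The 61 process lists and 14 cell type lists held 2370 symbols, of which 2159 were measured. The members and lists were chosen with earlier results of these data known. Promoter windows came from RefSeq (GRCm38.p6), with the first window listed for each symbol.

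The design text names the batch of each array, so that portions of a batch are paired. Deviations from the time means of the 5 same-batch pairs correlated with a median r of 0.086 (-0.107 to 0.274, 2 of them over 0.1), against -0.024 over the 25 pairs of different batches, and the consensus correlation within a batch was 0.0183. The code was tested on simulated data. Single values were compared with exact two-sided permutation tests over the arrays. Alternatives covered batch as a fixed term or random block, complete batches, arrays in the fit, array weights, the variance prior, scaling, level and probe set filters, the mean of a gene's probe sets and each array left out.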

Additional observations from a re-analysis of the deposited data

Results flagged for a closer look

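Within the 5 arrays of 0 h or the 6 of 24 h, a single array stood apart from the others in 27 of 432 sets of values examined, where chance gives about 1 in 20 (21.6). Of these, 11 were on 0 h replicate 3, the array with the high gut epithelium markers, whose mean was 6.68 there and at most 3.83 on the other 0 h arrays. On it, Cryab was highest at 4.74 (next 3.68), as were Cars at 6.17 (next 5.62), Gpx2 at 6.20 (next 5.45), Krt7 at 9.55 (next 9.31), Ins2 at 13.81 (next 13.75) and the mean of the lymphocyte markers at 3.44 (next 3.40). Lowest on the same array were Ghitm at 9.95 (next 10.48), Steap1 at 5.95 (next 6.44), Psma5 at 8.82 (next 9.16) and Slc2a2 at 12.12 (next 12.25).

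At 0 h, Adamts4 was lowest at 3.16 on replicate 1, where the next array read 3.83. On replicate 2, Gjd2 was lowest at 11.21 and Slc7a1 at 9.26, and Vgf was highest at 5.73. On replicate 6, Pparg was highest at 6.09 and Serpina3n at 3.51, and Spcs1 was lowest at 11.84.

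At 24 h, Pfkp read 9.52 on replicate 1 against at most 8.47 on the others, and Igfbp7 was lowest there at 9.26. Lcn2 had the widest gap, with 3.66 on replicate 5 against at least 6.55 on the others. Replicate 5 was also lowest for Adk (9.38), Gpt2 (6.45) and Rgs17 (7.34). Replicate 6 was lowest for Cxcl16 (5.98) and highest for Dusp14 (5.55), and replicate 3 was highest for Fgf1 (3.69). The calls of all of these genes that passed were kept without any single array.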

How the results depend on the processing

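The 3862 probe sets that passed became 3640 with batch as a fixed block and 3954 with batch as a random block, and the pairing changed the call of 0 of the 198 named genes that passed. List counts that the pairing moved by over 1.5 times are given in the report or moved by 1 or 2. Each count over all probe sets or genes remained within 1.5 times its main value under the 24 alternatives. Leaving out each of the 11 arrays in turn gave 3041 to 3845 probe sets, 1410 to 1877 of them higher and 1631 to 2093 lower, 250 to 293 at least 2-fold higher and 224 to 249 at least 2-fold lower. In the same fits 1738 to 2211 genes passed, 812 to 1075 higher and 926 to 1201 lower. The median of all probe sets ran from -0.0092 to 0.0073 over the alternatives.

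Of the named genes that passed, 11 did not pass under at least 1 alternative. Of these, Ppy, Fkbp11, Sec63, Cbs and Igfbp5 kept their sign and are given in the report. The sign turned in the other 6, all with probe sets of opposite direction and all when the mean of a gene's probe sets was used: Cdh8 (-0.15), Eif1ax (-0.16), Kcmf1 (-0.17), Map4 (-0.04), Ndufs4 (-0.02) and Pclo (0.21). None of these means passed. The size of a difference depended on the probe set in more genes. With the mean of a gene's probe sets the value moved by over 1.5 times in 31 named genes, among them Btnl9 (-2.11), Timp3 (-1.68), Ptprb (-1.16), Epas1 (-1.14), Cavin2 (-1.45), Top2a (-0.59), Kitl (-0.45), Rgs5 (-1.86), Rgs2 (-2.04), Rgs4 (2.27), Inhbb (1.09), Csf1r (-0.89) and Plat (0.70), and without probe sets that can match several transcripts in 10, among them H2-Ab1 (-0.87), Gpt2 (0.62), Mt1 (0.61) and Steap1 (0.69). Leaving out 1 array moved 1 named gene so far, Lcn2, and batch as a block moved 0. The fits without 0 h replicate 3 and 24 h replicate 5 together and with the acinar mean were chosen after seeing the data. Levels under 3.52 were not separated from background, and changes there can be understated.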
